A study of Saccharomyces cerevisiae with 11 samples.

Results

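A pair of cultures of a pooled peptide library were compared at 24 h, one grown with aureobasidin at the number 200 given in the sample labels and one grown without it. They were chosen by their sample titles and are 2 of the 11 samples of the series. Both were Y2H Gold, a budding yeast strain, kept in synthetic medium without tryptophan and diluted 1 in 100 each day. The labels give the unit of the number inconsistently, so 200 and 150 are printed without one, and the labels' growth protocol describes the antibiotic for every sample, so the untreated group rests on the titles. The library held 12400 entries in 143 design sets, nearly all of them coding for 20-residue peptides, and each sample was counted in 5 sub-libraries told apart by barcodes added before cloning, which gave 10 columns of counts here out of 55. The labels do not say that the barcoded sub-libraries were separate cultures, so the p-values below measure the spread between them, which may be technical.

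Aureobasidin A inhibits the inositol phosphorylceramide synthase encoded by AUR1, an essential enzyme of yeast sphingolipid synthesis. In Y2H Gold a drug-resistant allele of that gene is driven by a Gal4-responsive promoter, so that growth in the antibiotic reports the strength of an activation domain. Acidic activation domains pair bulky hydrophobic residues such as tryptophan, phenylalanine and leucine with aspartate or glutamate, and bind coactivators such as Mediator subunits. An entry here is therefore read as a share of the pool, and a change is a gain or loss of that share, not a measure of transcription.

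The designed peptides fell into families. Grid sets scattered tryptophan, aspartate, glycine and in part arginine in varied numbers and spacings. The grid set numbered 32 also served as the parents of 19 substitution series, in which all or some residues of one kind were replaced. Core sets repeated a unit of aspartate, glycine and a core residue with varied neighbours on both sides. The remaining entries were 300 random peptides of glycine, tryptophan, arginine and aspartate, position scans, tryptophan-proline templates and controls. The controls were 6 order controls, 24 activation domain controls and 153 stop-first entries that begin with a stop codon and encode no peptide.

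Each entry also carries a 20-base DNA tag in the deposited table. The tags of the entries on which the account turns are shown so that these can be found again. The first is the entry with the largest share under the antibiotic, the second its methionine counterpart with the same 3 positions replaced, the third the leucine entry with the next largest share, then a cysteine variant with no read left, and the last pair order controls with the same residues in a different order.
Entry 8135: ggccacatgtgtctgtcttt
Entry 8235: cctccatcgcgttgcatacg
Entry 8168: gacactgacgttttacccct
Entry 8697: gatgccgcacagacttttat
Entry 6832: accacgcggtgtccatacta
Entry 6836: agcgtaacccatcacttgta

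The treated columns held 683589 to 1340181 reads and the untreated columns 1327546 to 2564520. An entry with a read was found 4979 to 6164 times per column under 200 and 7309 to 8449 times without it, against 11183 to 11566 times at 0 h. The effective number of entries, the inverse of the sum of squared shares, was 484 ± 40 (SD, n = 5) under 200 and 726 ± 76.7 untreated, and the groups did not overlap. The number of entries with a read also moves with depth, which was lower under 200. No pair of columns was identical, and columns of one group differed by 135 to 288 times the chi-square expected of sampling noise.

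Stop-first entries, which encode no peptide, kept reads under the antibiotic. Their share of reads by barcode number was 0.0713%, 0.057%, 0.0663%, 0.0373% and 0.047% under 200 and 0.0351%, 0.0293%, 0.0215%, 0.0355% and 0.0221% untreated. All 5 barcode numbers were higher under 200. The group means were 0.0558% ± 0.0139 and 0.0287% ± 0.00676 (SD, n = 5), a ratio of 1.94, with an exact permutation p = 0.00794, the smallest that 5 against 5 allows. Paired by barcode number, the exact sign-flip p was 0.0625, the smallest that 5 pairs allow, and the same limit holds for every set and series tested below on 5 values a group. At 0 h the share was 0.4% ± 0.0264, so 13.9% of it was left under 200 and 7.18% untreated. The reads came from many entries: 20 of the 153 had no read under 200, and the 10 richest held 24.9% of the stop-first reads, while the same 10 held 15.7% untreated. Single stop-first entries kept a median of 13.5% of their 0 h share (quartiles 3.93% and 20.6%). With the label 150 at 24 h the share was 0.00145% ± 0.00147, from 74 reads in 5 columns against 2820 under 200.

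**Figure D1:**
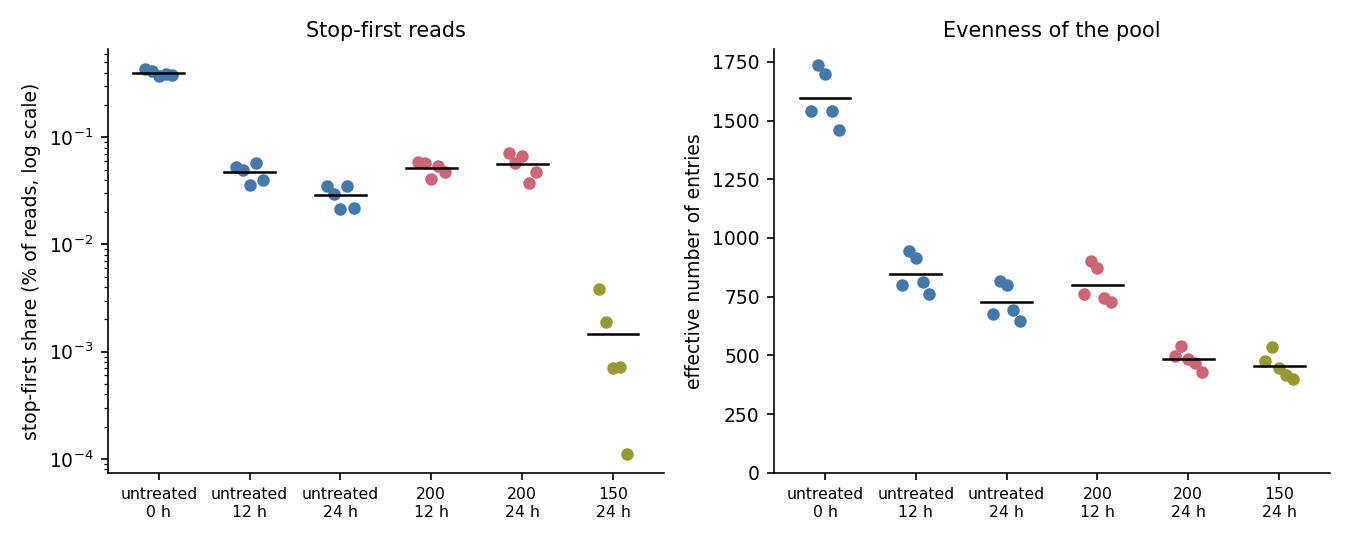
Left, share of reads on stop-first entries (% of a column's reads, log axis); right, effective number of entries. Points are the 5 barcoded columns of a sample and black lines their means. At 24 h the label 200 stands at 0.0558% against 0.0287% untreated, while its effective number, 484, lies under the 726 of the untreated columns.

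Of 4695 entries whose counts averaged 10 or more across the 10 columns, 787 rose and 1640 fell at a Benjamini-Hochberg adjusted p under 0.05 in edgeR's quasi-likelihood test with barcode number as a block. These are 16.8% and 34.9% of the entries tested. The changes were lopsided in size as well as in number. The median log2 change was 1.25 among risers and -3.54 among fallers, 55 risers at least quadrupled and 991 fallers dropped at least 8-fold. Over all tested entries the median was -1.31, and it was -2.56 when the part of each treated column that resembles the 0 h pool was taken off. Of the 4 stop-first entries tested, 0 rose and 0 fell by edgeR (0 at an unadjusted p under 0.05 and by DESeq2). Without the block the test called 0 risers and 379 fallers.

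**Figure D2:**
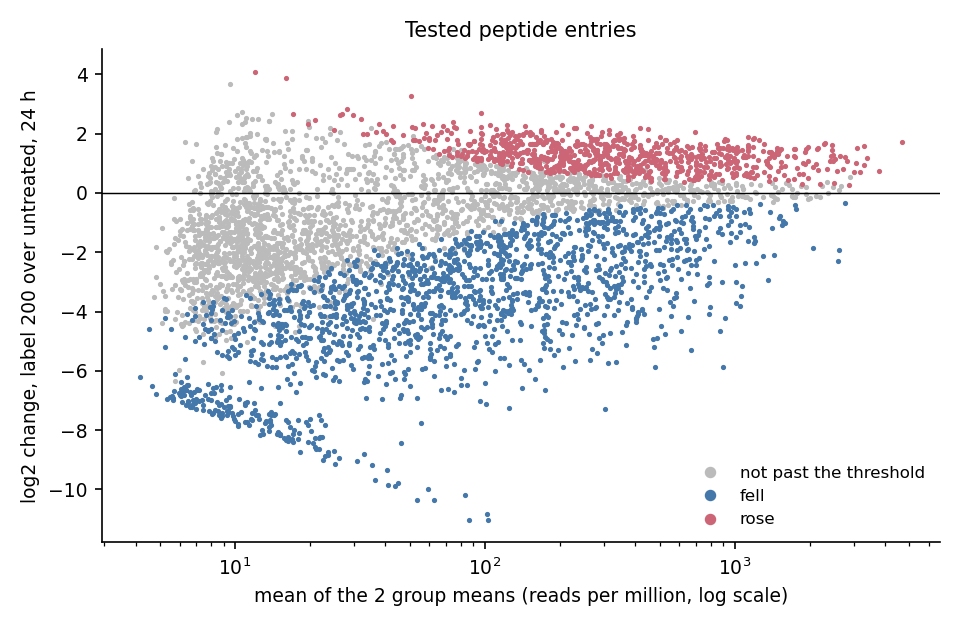
Each point is a tested entry: x, the mean of both group means in CPM, counts scaled to a column total of 1000000 (log axis); y, edgeR's log2 change of 200 over untreated at 24 h. The 787 risers lie in a narrow band above 0, with a median of 1.25, and the 1640 fallers spread down to -11.03, where entries have no read under 200 and the fitted value depends on the prior count.

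Losses are read against the stop-first entries. Of the 1640 fallers, 962 kept a smaller part of their 0 h share than the 13.9% of the stop-first entries. The other 678 kept more, and the median of all fallers was 10.1%. Fallers were chosen for a low share under 200, which favours a small part left. The stop-first value is pooled, and only 4 of the 153 stop-first entries passed the count filter. The split was not tested. No read under 200 was found for 177 fallers. At the retention of the stop-first entries 176 of these would have had at least 10 reads, with a median of 35.6. Entries without a read under 200 passed the count filter on untreated reads alone. Their untreated level was therefore high by selection, which favours a large expected number.

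The same residues in another order gave opposite changes. The order controls are 6 peptides of tryptophan, aspartate and glycine, each present as 4 entries with different tags. A peptide of 10 glycines, 3 aspartates, 5 tryptophans and 2 aspartates had a summed share of 0.198%, 0.503%, 0.333%, 0.0985% and 0.168% untreated and of 0.434%, 1.11%, 0.74%, 0.216% and 0.356% under 200, by barcode number. All 5 barcode numbers were higher under 200, by a ratio of means of 2.2. All 4 of its entries rose, by log2 0.88 to 1.30 with an edgeR adjusted p of at most 0.000398. Moving the closing aspartates in front of the tryptophans gives 10 glycines, 5 aspartates and 5 tryptophans. That peptide went from 0.34%, 0.315%, 0.199%, 0.182% and 0.15% to 0.04%, 0.0255%, 0.0153%, 0.0177% and 0.00874%. The groups did not overlap, and all 4 entries fell, by log2 -2.97 to -4.11 with an edgeR adjusted p of at most 3.59e-05. Under 200 the peptide kept 12.3% of its 0 h share, next to the 13.9% of the stop-first entries.

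The next matched pair holds 8 glycines, 7 tryptophans and 5 aspartates. With the tryptophans and aspartates mixed, no tryptophan run over 4 and an aspartate at the end, the summed share was 0.119% ± 0.0663 (SD, n = 5) untreated and 0.348% ± 0.235 under 200. It was higher under 200 in 5 of 5 barcode numbers, and its 3 tested entries rose by log2 1.11 to 1.57. With 6 tryptophans in a run at the end the share went from 0.294% ± 0.197 to 0.0128% ± 0.0102, lower in 5 of 5. Its 4 entries fell by log2 -3.93 to -6.57 and kept 7.32% of the 0 h share. The glycine-free pair had the same counts of 10 tryptophans and 10 aspartates. Alternating, it was at 0.0547% ± 0.0318 untreated and 0.133% ± 0.0928 under 200, and its 3 tested entries rose by log2 1.19 to 1.34. In blocks, 10 tryptophans before 10 aspartates, it stood at 0.00362% ± 0.00359 and 0.000727% ± 0.000612; 1 of 2 tested entries fell and only 34 reads were left under 200. The rising layouts differ from their partners in the number of tryptophan-aspartate neighbours and, in 2 of the pairs, in whether the peptide ends in aspartate or tryptophan.

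**Figure D3:**
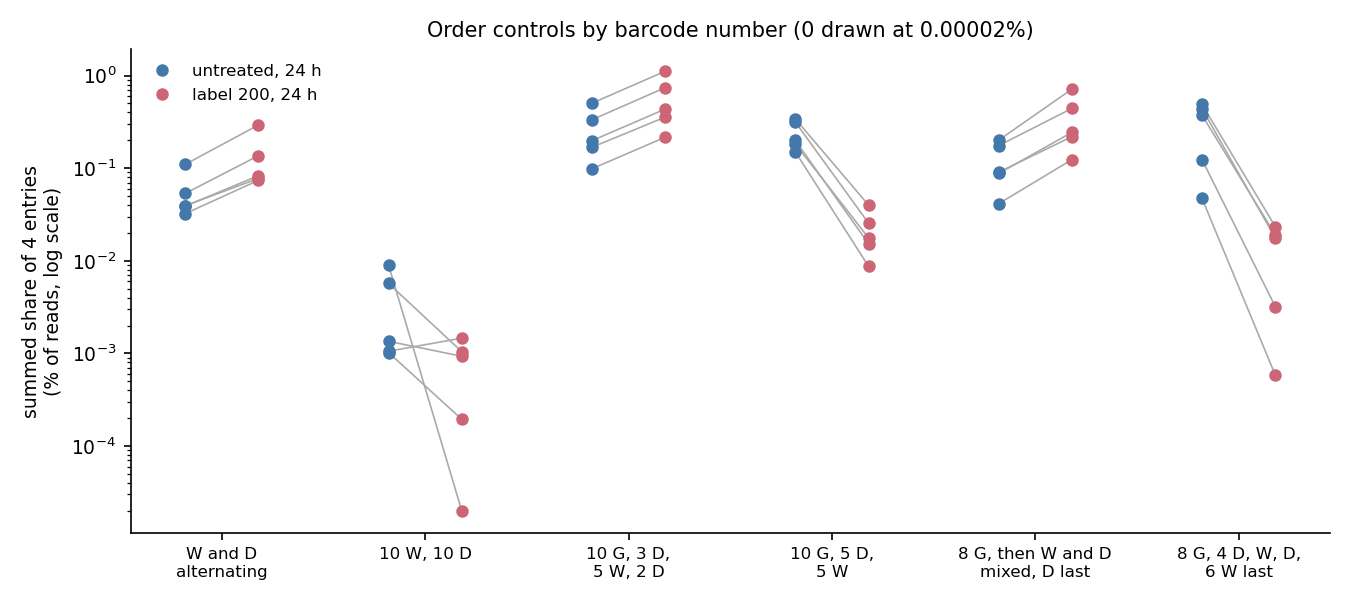
Summed share of the 4 entries of each order control (% of reads, log axis), untreated in blue and label 200 in red at 24 h; lines join the same barcode number. In the layouts of 10 glycines, 5 tryptophans and 5 aspartates, the lines go from 0.26% to 0.572% and from 0.237% to 0.0215% on average.

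Neighbouring tryptophan and aspartate went with the change over the larger set of 2413 entries made of aspartate, glycine and tryptophan alone, of which 927 were tested. Of these 927, 121 rose and 398 fell (13.05% and 42.9%). Entries with no such neighbour pair had a median log2 change of -3.37, with 0 risers and 48 fallers among 114 tested. Their fallers were thus near the share over all 927. Entries with 0 or 1 pair kept 20.3% of their 0 h share, against 13.9% for the stop-first entries. With 5 pairs the median was -0.11, with 27 risers and 34 fallers of 107. With 7 pairs it was 0.69, with 15 risers and 5 fallers of 32. The number of pairs ranked with the log2 change at Spearman's rho 0.48 over the 927 entries, which share columns and depth; the number of aspartates did so at 0.32 and of tryptophans at 0.17. These are descriptions across entries, not tests.

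Neighbour pairs also grow with the number of both residues. Of 508 tested entries with 5 to 8 tryptophans and 5 to 8 aspartates, 20.3% rose and 42.3% fell. Those with 0 or 1 pair held 1 riser and 44 fallers of 54, with a median of -3.31. Those with 2 or 3 pairs held 19 risers and 110 fallers of 193, with a median of -1.13. Those with 4 to 6 pairs held 60 risers and 59 fallers of 223, and those with 7 or more 23 risers and 2 fallers of 38, with medians of 0.16 and 0.72. In summed reads the lowest class went from 1.64% ± 0.49 to 0.449% ± 0.132 (SD, n = 5) and the highest went from 1.25% ± 0.137 to 2% ± 0.232, each in 5 of 5 barcode numbers. The lowest class kept 34.3% of its 0 h share, more than the 13.9% of the stop-first entries.

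Longer tryptophan runs went the other way in the same 508 entries. Entries whose longest run was 1 or 2 had a median of 0.28, with 57 risers and 41 fallers of 191. A longest run of 3 gave -0.67, a run of 4 gave -1.44, and runs of 5 or more gave -2.42 with 5 risers and 28 fallers of 40. Summed, these 3 classes kept 91.1%, 108% and 91.3% of their 0 h share, against 13.9% for the stop-first entries. The longest run ranked with the log2 change at Spearman's rho -0.05 over all 927 tested entries. Over all 927 tested entries of these residues, those whose last 5 residues were all tryptophan had 0 risers and 16 fallers of 18 tested by edgeR (0 risers at an unadjusted p under 0.05, 1 riser by DESeq2), and their share went from 1.14% ± 0.385 to 0.191% ± 0.0483, which left 27.1% of that at 0 h. With 2 or 3 tryptophans in that window there were 95 risers and 177 fallers of 480, and with none 2 risers and 71 fallers of 139. The fallers were 36.9% and 51.1% of those tested, against 42.9% over all 927.

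**Figure D4:**
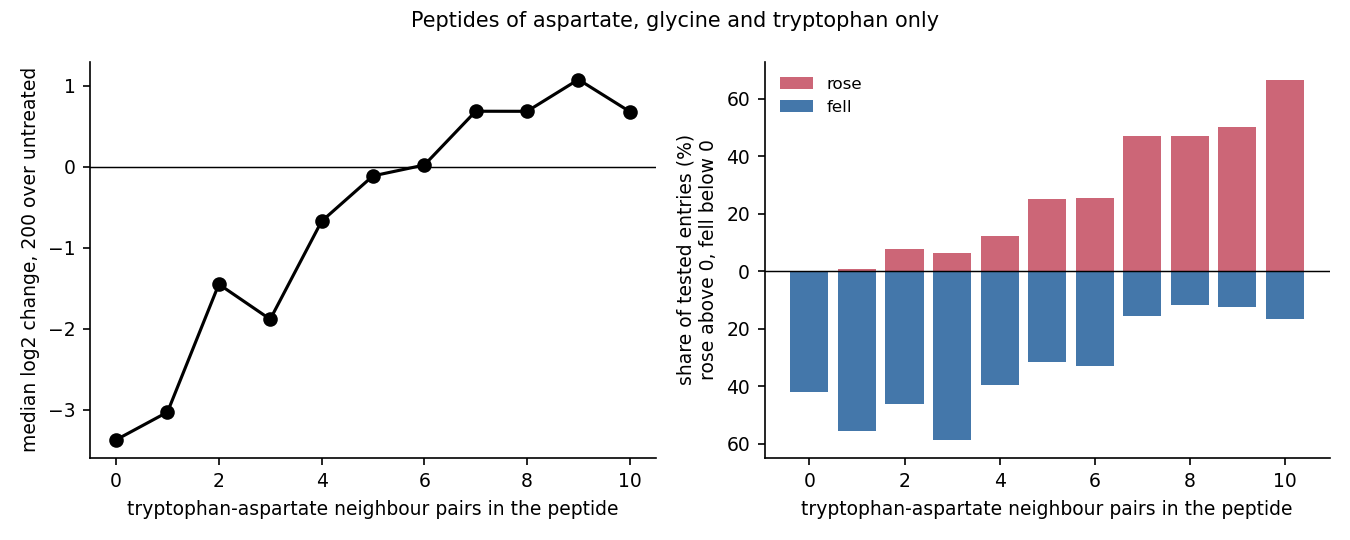
Peptides of aspartate, glycine and tryptophan only, by the number of tryptophan-aspartate neighbour pairs: left, the median log2 change of tested entries; right, the percentage that rose (above 0) and fell (below 0). The median goes from -3.37 with no pair to 0.69 with 7 pairs; values with fewer than 5 tested entries are not drawn.

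The numbers of both residues were also compared. Among tested entries of aspartate, glycine and tryptophan alone, 13.05% rose and 42.9% fell. Where tryptophans outnumbered aspartates by 3 or more, 2 entries rose and 90 fell of 132. That is 68.2% falling, and 71.9% of the 0 h share was left. Where aspartates outnumbered tryptophans by 3 or more, 2 rose and 35 fell of 111. Here 31.5% fell, under the share over all entries of these residues, and 18.4% of the 0 h share was left. Entries of the same residues whose numbers differed by at most 1 held 102 risers and 233 fallers of 603. Their fallers were 38.6%, and they kept 98.4% of their 0 h share. Over all peptides, risers were gathered at negative net charge. At a net charge of -8 to -6 there were 622 risers and 585 fallers of 1963 tested, and their share went from 57.9% ± 1.48 to 66.5% ± 1.63. At -2 or above there was 1 riser and 390 fallers of 1114. That is 35% falling, near the 34.9% of all entries, and 17.5% of the 0 h share was left. The 448 tested entries with 3 or more arginines had 0 risers and 176 fallers by edgeR (0 risers at an unadjusted p under 0.05, 1 by DESeq2). The fallers were 39.3% of them, and entries of this class kept 13.8% of their 0 h share, next to the 13.9% of the stop-first entries.

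The 16 arginine-bearing grid sets together went from 3.41% ± 0.313 to 1.35% ± 0.143 of reads and kept 21.7% of their 0 h share. They had 2 risers and 168 fallers of 395, which is 42.5% falling, against 34.9% of all tested entries. Sets with 2 tryptophans and 2 aspartates on glycine went from 0.227% ± 0.0332 to 0.0784% ± 0.00981 and kept 8.91%, against 13.9% for the stop-first entries. They had 0 risers and 24 fallers of 68 by edgeR (0 risers at an unadjusted p under 0.05 and by DESeq2). That is 35.3% falling, near the 34.9% of all tested entries. The median was -3.66 in set6, with tryptophans at position 6.54 on average, and -3.77 in set22, with tryptophans at 15.9. In glycine-only backgrounds with more tryptophan, sets with a mean longest run of 3.5 or more had 30 risers and 219 fallers of 373. The fallers were 58.7% of them, against 34.9% of all tested entries, and these sets kept 82.1% of their 0 h share. The 5 sets with shorter runs, leaving out the parents in set32, had 51 risers and 107 fallers of 296. Their fallers were 36.15%, and they kept 104.7% of their 0 h share. The 300 random peptides had 2 risers and 49 fallers of 107 tested, which is 45.8% falling, and kept 39.1% of their 0 h share. The largest median of the grid was 0.36, in set32, with 28 risers and 15 fallers of 96, and its matched long-run design set24 stood at -0.72, with 10 risers and 50 fallers of 93.

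Replacing residues of the set32 parents went with a changed gap to the parents in 5 series upward and 8 downward. For each column the mean log2 gap between variant and parent was taken over pairs with both entries tested, and the gaps under 200 and untreated were compared by an exact permutation test, adjusted over the 19 series. The other 6 series did not pass. Values are given as the change ± SE over the 5 barcode numbers, which leaves out the spread between pairs. In every rising series an adjusted p of at most 0.0464 was reached, and in every falling series 0.0137.

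Phenylalanine in place of tryptophan, and leucine in place of some tryptophans, gained. With all tryptophans made phenylalanine, the variants stood 2.10 log2 units under their parents untreated and 1.21 under them with 200, a change of 0.89 ± 0.06 (n = 5) that was positive in 73 of 86 pairs. The series went from 0.629%, 0.703%, 0.61%, 0.541% and 0.548% of reads to 1.3%, 1.64%, 1.28%, 1.26% and 1.16%. All 5 columns under 200 were above all 5 untreated ones. With some tryptophans made phenylalanine the change was 0.69 ± 0.08, and with some made leucine 0.70 ± 0.07. With all made leucine it was -0.38 ± 0.09 and did not pass (adjusted p = 0.14, exact permutation test). It passed at -0.83 with the 0 h pool taken off and at -0.61 with a prior count of 0.5 (adjusted p = 0.0232 and 0.0348, exact permutation test). The some W to F change did not pass without barcode number 1, 2, 3 or 4 or at that prior count, with adjusted p from 0.0539 to 0.167 in the exact permutation test.

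Tyrosine in the same place lost ground to the parents. The change was -2.08 ± 0.21 where all tryptophans were tyrosine and -1.40 ± 0.09 where some were. In the former, 0 entries rose and 12 fell of 46 tested by edgeR (0 risers at an unadjusted p under 0.05 and by DESeq2), and in the latter 2 rose and 35 fell of 93. The fallers were 26.1% and 37.6% of those tested, against 34.9% of all tested entries. The first set kept 10% of its 0 h share and the other 48.6%, beside 13.9% for the stop-first entries. Glutamate in place of aspartate, which keeps the charge and adds a methylene group, changed the gap by -1.78 ± 0.10 when complete, with 52 fallers of 90 and 54.9% of the 0 h share left, and by -0.68 ± 0.01 when partial.

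Glycine is the spacer of the parents, and the residue put in its place split the 11 glycine series. Proline gave 0.73 ± 0.04, with 63 risers and 7 fallers of 95, and asparagine 0.70 ± 0.03, with 46 and 6 of 96. Asparagine did not pass without barcode number 1, 2 or 5 (adjusted p = 0.0835 to 0.0905, exact permutation test). The proline series held 3.07%, 2.48%, 3%, 2.91% and 2.98% of reads untreated and 5.42%, 4.8%, 5.82%, 6.03% and 5.31% under 200. The columns did not overlap. Methionine gave 0.14 ± 0.06, leucine -0.12 ± 0.05, alanine -0.09 ± 0.03, threonine -0.14 ± 0.08 and glutamine 0.06 ± 0.07; none of these passed, with adjusted p from 0.402 to 0.714 in the exact permutation test.

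Cysteine in place of glycine gave the largest negative change of the 19 series, -3.21 ± 0.06. Its variants were 0.84 log2 units above their parents untreated and 2.38 below them under 200. The series fell from 5.49%, 4.98%, 4.88%, 4.01% and 3.81% of reads to 1.24%, 1.51%, 1.44%, 0.96% and 1.25%, with 4 risers and 84 fallers of 97, and kept 33.5% of its 0 h share against 13.9% for the stop-first entries. Valine, isoleucine and serine gave -1.64 ± 0.10, -1.61 ± 0.06 and -1.43 ± 0.07, and these sets kept 111%, 170% and 59.1% of their 0 h share. Isoleucine thus stood apart from leucine, its isomer, and the leucine series had 54 risers and 23 fallers of 93 where isoleucine had 16 and 35 of 72; the difference between those series was not tested.

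**Figure D5:**
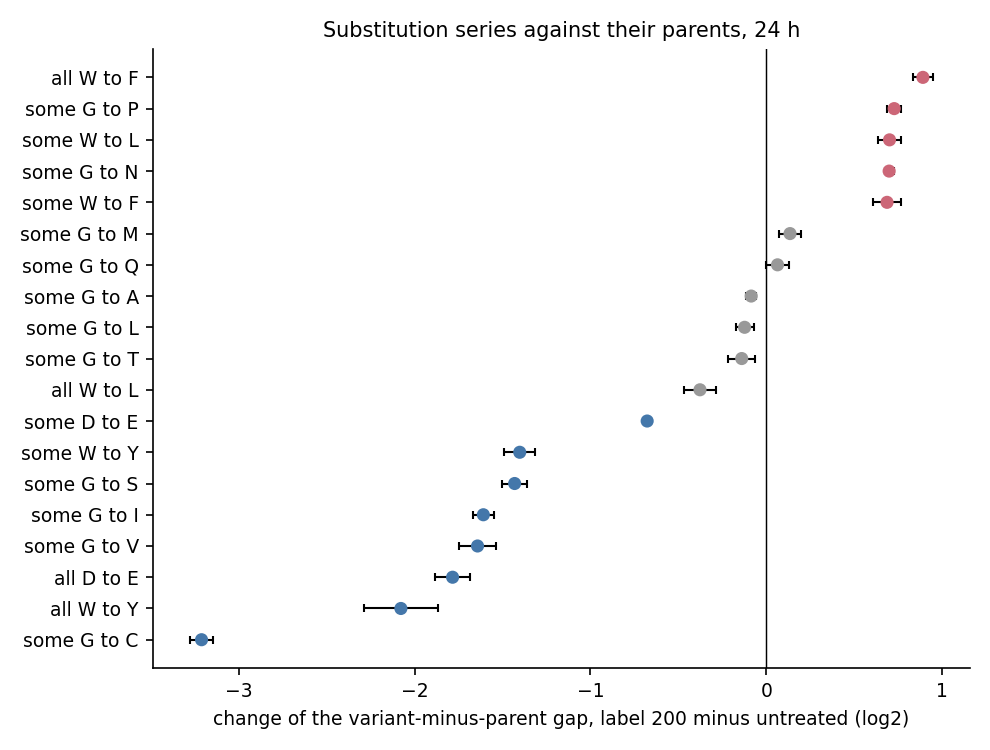
Change of the mean variant-minus-parent gap (log2, label 200 minus untreated, 24 h) for the 19 substitution series; bars are the SE over 5 barcode numbers. Red points rose and blue points fell at an adjusted p under 0.05 in the exact permutation test, and grey points did not pass; all W to F stands at 0.89 and some G to C at -3.21.

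Among series that kept pace with their parents, leucine and methionine were the most abundant. The leucine series took 12.6% ± 1.81 of all reads under 200 and 7.43% ± 1.18 untreated, and the methionine series 10.3% ± 1.14 and 5.77% ± 0.399. As sets, both rose in share (exact permutation test, adjusted p = 0.0193 over 129 sets). The variants stood above their parents already without the antibiotic, by 1.62 and 1.32 log2 units.

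Of 129 sets with a read in all columns, 17 rose and 58 fell in share at an adjusted p under 0.05 in the exact permutation test. By the median log2 change of their entries the highest 8 of the 97 sets with at least 5 tested entries were substitution series. All W to F led with 1.47, followed by some W to L at 1.25, some G to N at 1.21, some W to F at 1.2, some G to M at 1.08, some G to P at 1.04, some G to L at 0.76 and some G to Q at 0.67. The lowest 8 were set21 at -6.62, 5 tryptophan-proline templates at -5.46 to -3.84, set5 at -4.21 and set22 at -3.77. The grids set21, set5 and set22 have 2 adjacent tryptophans, with arginine in set21 and set5 and without it in set22. Only 5 to 19 entries were tested in each of the lowest 8. These sets kept 4.09% to 10.8% of their 0 h share, under the 13.9% of the stop-first entries. The summed shares of set21 and set5 did not pass (adjusted p = 0.146 and 0.377, exact permutation test), and each was higher under 200 in 2 of 5 barcode numbers. All tryptophan-proline templates together went from 2.71% ± 0.0892 to 0.976% ± 0.097 of reads and kept 23.4% of the 0 h share. By edgeR 0 of their 255 tested entries rose and 141 fell (0 risers at an unadjusted p under 0.05 and by DESeq2). The fallers were 55.3% of them, against 34.9% of all tested entries.

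Core sets with 3 units separated by the core residue. Tryptophan cores had 22 risers and 100 fallers of 270 tested, phenylalanine cores 30 and 41 of 192, leucine cores 21 and 26 of 129, and tyrosine cores 0 and 60 of 168 by edgeR (1 riser at an unadjusted p under 0.05, 2 by DESeq2). In that order 37%, 21.35%, 20.2% and 35.7% fell, against 34.9% of all tested entries. The tyrosine set went from 1.29% ± 0.14 to 0.664% ± 0.113 of reads, lower in 5 of 5 barcode numbers, and kept 32% of its 0 h share. With 2 units there were 1 riser and 171 fallers of 452, which is 37.8% falling, and 26.5% was left. With 1 unit the summed share of the 4 sets was higher under 200, at 0.248% ± 0.0174 against 0.192% ± 0.0105, and 14.6% of the 0 h share was left, next to 13.9% for the stop-first entries. The position scans of 1 or 2 aromatic residues kept 11.5%.

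Counts also varied with the neighbours of the core in the 3-unit sets. With phenylalanine or tryptophan beside a leucine core, 20 entries rose and 13 fell of 66 tested, and beside a phenylalanine core 21 and 21 of 67. Beside a tryptophan core the counts were 12 and 29 of 66, and beside tyrosine 0 and 30 of 64 by edgeR (1 riser at an unadjusted p under 0.05, 1 by DESeq2). Acidic neighbours gave 5 risers and 1 faller of 18 beside leucine, 3 and 1 of 17 beside phenylalanine, and 4 and 6 of 43 beside tryptophan. Beside tyrosine they gave 0 and 4 of 19 by edgeR (0 risers at an unadjusted p under 0.05 and by DESeq2). With valine or isoleucine beside the core there were 0 risers by edgeR beside tryptophan, phenylalanine or leucine, among 60, 44 and 24 tested (0 at an unadjusted p under 0.05 and by DESeq2). With a basic neighbour there were also 0 risers, among 39, 21 and 11 tested, again 0 by both. Over all tested entries 16.8% rose and 34.9% fell. Valine or isoleucine neighbours had 36.7%, 27.3% and 20.8% falling, and basic ones 48.7%, 14.3% and 18.2%, in the same order. Cysteine beside a tryptophan core gave 2 risers and 22 fallers of 35.

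The activation domain controls did not move as a block. Of 24 controls, each of 4 entries, 18 had tested entries, and of 56 such entries 10 rose, 9 fell and 37 did not pass. The risers were 17.9% of them, near the 16.8% of all tested entries. The fallers were 16.1%, against 34.9% of all tested entries. Oaf1 (1035-1047), from the yeast regulator of fatty acid oxidation genes, went from 0.328%, 0.37%, 0.343%, 0.364% and 0.321% to 0.86%, 0.877%, 0.817%, 0.814% and 0.814%. All 4 of its entries rose and the columns did not overlap (exact permutation test, adjusted p = 0.0193). The doubled minimal VP16 motif, from the viral activator of immediate early genes, went from 0.0186% ± 0.0117 to 0.0743% ± 0.0438, with 3 of 4 entries rising and an adjusted p of 0.031 in the exact permutation test. The single motif had no tested entry and no read under 200. Of plantHSFA2, a heat shock factor, 2 of 4 entries rose, and of Gal4 (860-872) 1 of 3.

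Other controls lost share. Pdr1, from the yeast regulator of drug efflux pumps, went from 0.0327% ± 0.0373 to 0.00613% ± 0.00473 with 2 of 4 entries falling and 20.6% of the 0 h share left (exact permutation test, adjusted p = 0.031). VP16 21aa had 3 fallers of 4, KLF4 2 of 4 and EBNA2 2 of 3 by edgeR, where DESeq2 called 1, 1 and 2 lower. For their shares the adjusted p was 0.197, 0.11 and 0.092 in the exact permutation test. In that order they kept 71.6%, 79.5% and 12.2% of their 0 h share, beside 13.9% for the stop-first entries. For AH, EKLF TAD1 (19-37), Gal4 (840-857), Gcn4 81-100, hHSF1 AD1 (401-420), LexA scr top#1, Msn2 (motif b), Pho4, VP16 (437-447) and p53-AD1, no tested entry passed by edgeR; each had 1 to 4 tested. ESX, Gln3, Msn2 (235-246), STAT6 (1OJ5) and TAT(1-13) were too scarce to test, at 0.000458% to 0.00193% of reads under 200.

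The 12 largest risers that moved the same way in 5 of 5 barcode numbers were scarce. Together they held 0.0128% ± 0.00824 of reads untreated and 0.0733% ± 0.0329 under 200. They were 8 entries with all tryptophans made phenylalanine (7006, 7029, 7030, 7047, 7060, 7069, 7079 and 7086), entries 7231 and 7265 with all made leucine, entry 7565 with some made leucine, and entry 4295 with 3 phenylalanine cores. Their log2 changes ran from 2.38 to 4.09. Entry 7086, in which 8 tryptophans became phenylalanine, had CPM values of 29.6, 72.5, 16.4, 3.77 and 13.5 untreated and 226, 384, 101, 32.2 and 83.9 under 200. It rose by log2 2.71 ± 0.39 (SE) with an edgeR adjusted p of 9.53e-05. Its 825 reads under 200 compare with 50.6 that the stop-first retention would leave. Entry 4295 rose by 3.26 ± 0.61 with an edgeR adjusted p of 0.000713, to 43.1 to 171 CPM. Entry 7565, the largest change at 4.09 ± 1.32, rested on 19 untreated reads, with none in 2 of the 5 columns.

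The 10 largest falls had no read under 200 in any of the 5 columns. They were entries 9282, 10020, 9655 and 10062 of the grid, 8697 and 8242 with glycines made cysteine and methionine, 2541, 2551 and 6213 with 2 cores, and 2773 with 3 cores. Entry 9282, with 10 tryptophans of which 6 are in a run, had 97.3, 273, 66.3, 142 and 446 CPM untreated. Against a floor of 3 counts over the 5 treated columns it was at least 308-fold lower, with an edgeR adjusted p of 9.27e-06. Stop-first retention would have left it 111 reads. Entry 8697, whose 4 replacements are G4C, G9C, G10C and G11C counted from the first residue, was at least 193-fold lower, with an edgeR adjusted p of 5.71e-05. Entry 2541 took most of its untreated level from 1 column, at 783 CPM against 4.3 to 31.6 in the other 4. Entries 2551, 6213 and 8242 likewise had 1 high column, at 506, 326 and 327 CPM, with at most 30.6, 48.5 and 59.9 in the others.

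The 10 most abundant entries under 200 held 4.66% ± 0.427 of reads, against 1.99% ± 0.265 untreated. All 10 rose, a direction that choosing them by their share under 200 favours. The 6 entries with glycines replaced by leucine (entries 8135, 8168, 8145, 8170, 8093 and 8114) stood among them, with the methionine entry 8210, the grid entries 10797 and 9237, and Oaf1 entry 6780. Entry 8135, with G5L, G12L and G16L in parent 12035, had 2557, 3205, 1970, 1609 and 1342 CPM untreated and 8324, 11260, 6733, 5772 and 3801 under 200. It rose by log2 1.73 ± 0.08 (SE) with an edgeR adjusted p of 4.95e-08. Entry 8235 carries methionine at the same positions, as G5M, G12M and G16M, and rose by 1.32 ± 0.10, from 0.0813% to 0.204% of reads, with an edgeR adjusted p of 5.66e-07. Entry 8168, with G7L, G11L and G19L in parent 12068, rose by 1.57 ± 0.08 with an edgeR adjusted p of 8.06e-08. Entry 9237 was the largest untreated entry of the 10 at 0.273% and rose least in share but for 8093, by 0.74 and 0.69 on the log2 scale.

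The entries that led the pool later stood above untreated at 24 h. Choosing them by their share at 72 h under the same label favours that direction. The 10 with the largest share at 72 h under 200 held 1.19% ± 0.26 of reads untreated at 24 h and 3.58% ± 0.865 under 200 at 24 h, and all 10 had risen, by log2 1.21 to 1.73. Entry 8135 was at 0.718% at 24 h and 19.5% at 72 h. Entry 8122, also a leucine variant, was at 0.378% and 4.33%. The others were 8824 with proline, 8235, 8256, 8210 and 8273 with methionine, 8168 and 8173 with leucine, and order control 6843, whose tryptophans and aspartates are mixed. Entries 8173 and 8273 replace the same 4 glycines of parent 12073 by leucine and methionine, and rose by 1.43 and 1.49. Isoleucine at those positions, in entry 8073, gave -0.30 ± 0.13 with an edgeR adjusted p of 0.068.

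At 12 h the antibiotic had changed little. With 200 at 12 h against untreated at 12 h, 137 of 5607 tested entries were higher and 407 lower (2.44% and 7.26%) and the median log2 change was -0.08. The 19 series had medians between -0.33 and 0.08. The 24 h effect exceeded the 12 h effect for 884 of 5206 entries and lay under it for 1845 (17% and 35.4%) by the interaction term in edgeR. The largest positive interactions were those of entries 7565, 7030 and 4295, of stop-first entry 6940 and of grid entry 9178, and the largest negative ones those of entries 9282, 9655, 10806, 10020 and 10062. Entry 8135 had a log2 change of 0.05 at 12 h and an interaction of 1.68 with an edgeR adjusted p of 3.13e-10. Order control 6846, with 6 tryptophans at its end, was at -0.37 at 12 h and -5.31 at 24 h. The stop-first share was 0.0517% ± 0.00741 under 200 and 0.0471% ± 0.00913 untreated at 12 h.

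Against the label 150 at 24 h few of the entries abundant enough to test differed. Over all entries fewer were read under 150: 2779 to 3086 entries per column had a read, and entries with a net charge of 0 or above held 0.0325% ± 0.00637 of reads against 0.553% ± 0.0625 under 200. Of 2738 tested, 10 were higher under 200 and 4 lower by edgeR (0.365% and 0.146%). Without barcode number 2, 3 or 5 the counts were 0 and 0, without number 4 they were 1 and 1, and without number 1 they were 6 and 3. The largest of the higher ones were grid entry 10785, stop-first entry 6969, and entries 7219, 8854 and 8877; the first 3 had not passed against untreated. The 4 lower ones were 11624, 11997, 10823 and 8073. Entry 11997, a parent, fell by log2 1.28 ± 0.16 under 200. Under 150 its change was -0.48 and did not pass (edgeR adjusted p = 0.0529), against the same untreated columns. Those columns are shared, so both sets of changes are given side by side only. Under 150, 846 of 4416 entries were higher and 2572 lower (19.2% and 58.2%), with a median of -2.14 against -1.31 under 200. The cysteine series had medians of -4.49 and -3.67, all W to Y -7.36 and -2.59, some G to P 1.00 and 1.04, and all W to F 1.08 and 1.47. The stop-first share was lower under 150, as given above, and its part in the medians was not tested.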

How the data were processed

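Reads of each entry in 5 barcoded columns per sample were used as deposited: raw counts per entry, whole numbers per the file headers and values. Of upstream tools, cutadapt and STAR are listed per the submitters' processing notes; versions and settings are not given in the sources used here. Groups came from sample titles. The main test was edgeR 4.0.16 (quasi-likelihood, library size as total counts, barcode number as a block, mean of at least 10 counts, Benjamini-Hochberg over all entries tested); DESeq2 1.42.0 and TMM were alternatives. Barcode numbers pair the samples: deviations from the group mean correlated at 0.658 to 0.677 between same-numbered columns and at -0.206 to -0.122 between others, and barcodes were added before cloning per the labels' protocols. Shares of sets and of stop-first reads, and for each series the average log2 CPM, with 2 added as prior count, were tested by exact permutation, two-sided. Tested on simulated data of 4843 entries for this comparison, the fit called 0% of unchanged entries, 51% of those raised and 39% of those lowered by 2 log2 units. A floor of 3 counts over a group bounds folds against 0; intervals cover counting error only, since the reads carry no molecular identifiers. Named entries were the 12 largest risers and 10 largest falls that moved the same way in 5 of 5 barcode numbers, the 10 most abundant at 24 h and at 72 h with 200, the 8 highest and lowest sets, all series and controls, and up to 5 entries per direction for dose and time. The comparison, lists and classes were chosen with earlier results of these data known. Order controls, composition classes and core neighbours fall outside that rule and were chosen after values were seen.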

Additional observations from a re-analysis of the deposited data

Results flagged for a closer look

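Within groups of 5 columns, 1 value stood apart from the other 4 in several cases. About 1 in 20 groups would do so by chance, and 82 groups were examined. Among untreated columns, the some G to P set had 2.48% in 1 column against 2.91% to 3.07% in the others, and the template set wp-template1-3d-spread3 had 0.0643% against 0.007% to 0.0201%. The scarce risers gave 1 high untreated column each: entry 7565 at 0.000753%, entry 7030 at 0.00102%, entry 7047 at 0.00199%, entry 7029 at 0.0037%, entry 7069 at 0.00265%, entry 7265 at 0.0051% and entry 7006 at 0.00306%. Under 200, the some W to F set had 3.38% in 1 column against 1.82% to 2.2%, and wp-template1-2d-spread1 had 0.0100% against 0.00219% to 0.0044%. Entry 7060 had 0.00843% against 0.00366% to 0.00443%, entry 7029 had 0.0131% and entry 7265 had 0.0168%.

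The effect of 200 differed between 24 h and 12 h for 884 entries with a higher and 1845 with a lower change at 24 h, by the interaction term in edgeR.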

How the results depend on the processing

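Between 200 and untreated, 660 to 979 risers and 1199 to 1791 fallers were called, without comparing which entries, under TMM, DESeq2, no filter, a minimum mean of 50 and the removal of a share like the 0 h pool (9.52% to 17.8% of the treated reads). Without the replicate block they were 0 and 379. Leaving out a replicate gave 670 to 742 risers and 1357 to 1448 fallers. TMM moved the median of all entries by 0.24 and the share of risers among calls from 32.4% to 39.5%, DESeq2 by 0.13 and to 35.3%, and taking off the 0 h pool by -1.25 and to 30%. The interaction gave 0 and 31 calls with no replicate block, 973 and 1734 with TMM, and 782 to 846 and 1706 to 1796 without a replicate. Calls against 150 were 2 and 2 with the 0 h pool share off, 4 higher with TMM, 0 and 0 at a minimum mean of 50 and 0 and 0 with no replicate block; leaving out a replicate gave 0 to 6 and 0 to 3. Set shares gave 0 and 0 calls under the replicate block by sign flips, where no p under 0.0625 is possible, and 0 without any 1 replicate, where the smallest p is 0.0286, so these say nothing about stability. Series gave 0 and 0 under the block, 3 to 4 rises and 8 falls without a replicate, and 4 and 9 at a prior count of 0.5, where some W to F was lost and all W to L gained. The stop-first difference of 0.95 log2 units had p = 0.0625 by the exact sign-flip test and was 0.78 to 1.17 without a replicate. The some G to Q change of 0.06 turned to -0.10 with the 0 h pool share off. All W to L passed there at -0.83 (adjusted p = 0.0232, exact permutation test). No cause was tested. Depth limits entries under 10 mean counts: 4695 of 12400 were tested.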
